A study of Mus musculus with 6 samples.

Results

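Solute carriers are membrane proteins that move ions, metals, sugars, amino acids, vitamins and other small molecules into and out of cells and organelles. In enamel-forming epithelium, ameloblasts first secrete a protein matrix and then, in maturation, withdraw water and protein while phosphate, calcium and bicarbonate are delivered to the growing crystals. Hair and epidermis, which arise from other ectoderm, take up amino acids and fatty acids for keratin and for the lipids of the barrier. The set described here was chosen by symbol and by detection: every gene of the array whose symbol starts with Slc, without the mitochondrial Slc25 family and without 8 genes of enamel ion transport (Slc24a4, Slc26a4, Slc26a7, Slc4a4, Slc23a2, Slc40a1, Slc11a2 and Slc39a8), and with a probe detected at p under 0.01 on at least 1 of the 6 arrays. This gave 168 members of the 290 such genes on the array and of 16593 genes in all. Detection was thus used to choose them and is given as description. Just inside the limit, Slc16a3 and Slc5a9 had a lowest detection p of 0.00752, and just outside it Slc24a5 and Slc49a4 had 0.01003.

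Tissue was micro-dissected from the lower incisors of C57BL/6 mice at 4 weeks of age. The groups were KO, MED1 fl/fl with a Cre driven by the keratin 14 (K14) promoter, and CON, littermates that carried the MED1 fl/fl alleles but no Cre. Each was sampled at the cervical loop (CL), which holds the stem cells of the incisor epithelium, and at the secretory (Sec) and maturation (Mat) stages. Dissected tissue of 3 mice was combined for each array, and 1 array was run for each genotype at each stage, so no difference within a stage has a replicate or a test. The Cre acts in keratin 14-expressing epithelium, whereas the dissected tissue also held other cells, and in such bulk RNA fewer cells of a type and less RNA per cell cannot be told apart.

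Values are log2 intensities after background correction and quantile normalization, and each gene took its brightest probe. A probe's level is compared with its own level on other arrays only, since brightness differs between probes. At a stage, a gene counts as considered if 1 or both arrays detected it. It counts as higher (or lower) in KO if the fold reached 1.5 and the brighter array detected it. Where 1 array fell short of detection the fold is a bound, written "at least". A number in parentheses after higher or lower is KO minus CON on the log2 scale. Between 8355 and 8955 genes were detected per array. The enamel genes Amelx and Ambn were detected on all 6 arrays. Med1 itself, read by a probe whose place relative to the deleted exons is not known, read 9.58 (CON) and 9.04 (KO) at CL, 9.35 and 8.72 at Sec, then 9.15 and 8.66 at Mat.

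Hair and epidermal keratinization genes, considered as marker lists, were higher in KO for 9 of 9 and 10 of 10 genes at both Sec and Mat. Melanocyte genes were higher for 6 of 6 at Sec and 7 of 7 at Mat, with Tyr and Mitf on no array, and muscle genes for 13 of 16 and 10 of 16. Endothelial genes were lower for 5 of 10 and 8 of 10, and osteoclast genes for 4 of 4 at both stages. Ameloblast genes were higher for 3 and lower for 1 of 8 at Sec, and higher for 1 and lower for 4 of 8 at Mat. Odontoblast genes were lower for 2 of 6 at Sec and 2 of 7 at Mat, with 0 higher. The part of these cells in the values below was not tested.

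Of the 168 members, 115 were detected on all 6 arrays, and the number detected per array ran from 133 in CON at CL to 145 in KO at Mat. The rule also takes 4 proteins named after a carrier that carry nothing themselves (Slc4a1ap, Slc7a6os, Slc9a3r1 and Slc9a3r2) and the organic anion transporters written Slco. Slc47a1 entered through a probe other than its brightest, which was detected nowhere. In KO at Mat and on no other array 7 members were detected, namely Slc16a10, Slc36a1, Slc43a2, Slc46a2, Slc5a5, Slc5a9 and Slc6a2. Another 4 (Slc13a2, Slc22a4, Slc23a4 and Slc35e4) were detected in CON at Mat alone, and Slc2a4, Slc45a2 and Slc6a19 in KO at Sec and Mat alone. Over all genes these patterns held 214, 80 and 286 genes. Such members passed detection through the group in which they were bright, so their direction was set by that choice.

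By the 1.5-fold rule, solute carriers were more often lower than higher in KO at Mat, and about as often higher as lower at Sec. At Mat 156 members were considered, of which 22 (14.1%) were higher in KO, against 12.6% of all genes considered, and 43 (27.6%) were lower, against 18.4%. At Sec 31 of 152 members (20.4%) were higher, against 11.7%, and 27 (17.8%) were lower, against 15.2%. At CL 7 of 143 members (4.90%) were higher, against 1.81%, and 3 (2.10%) were lower, against 2%. In percentage points, the members stood farthest above all genes for higher values at Sec and for lower values at Mat. Restricted to the 115 members detected on all arrays, the shares at Mat were 14.8% higher and 27.8% lower, against 9.39% and 18.1% of the 7592 genes so detected. The median difference of the members was 0.03 at CL, -0.01 at Sec and -0.21 at Mat, and that of all genes considered -0.01, -0.11 and -0.13. In the deposited normalized values, whose method is not given, 22 members were higher and 12 lower at Sec (64.7% of those counted were higher, against 53.4% here). They were 17 and 28 at Mat, and 1 and 1 at CL (50% against 70%). At Sec 14.5% were higher, against 8.15% of all genes, and 7.89% lower, against 7.97%. At Mat 10.9% were higher, against 9.30%, and 17.9% lower, against 10.1%. At CL each side held 0.70%, against 0.53% higher and 0.40% lower of all genes. The share lower at Sec and both shares at CL were thus near those of all genes in the deposited values. The 20 members with the largest differences at Mat all kept their side in those values. Of the 133 single differences, 52 fell short of the fold rule in those values. These were 8 at CL (Slc12a1, Slc12a7, Slc13a4, Slc1a1, Slc37a4, Slc39a4, Slc41a2 and Slc6a15), 24 at Sec and 20 at Mat. Of the differences named below, those at Sec were of Slc11a1, Slc12a8, Slc13a5, Slc15a2, Slc26a1, Slc29a1, Slc31a2, Slc34a2, Slc37a4, Slc39a10, Slc45a3, Slc4a3, Slc7a3, Slc8a1 and Slc9a8. Those at Mat were of Slc12a4, Slc15a2, Slc15a3, Slc19a1, Slc27a1, Slc29a1, Slc35d1, Slc6a3, Slc7a3 and Slc8a1.

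**Figure D1:**
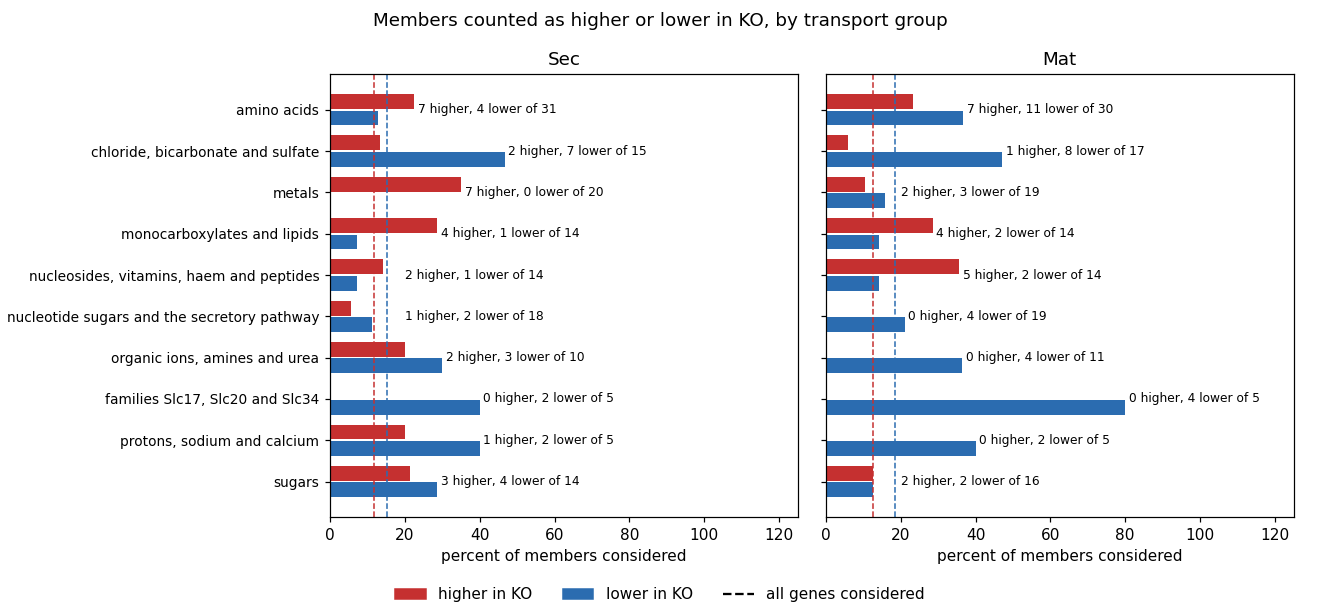
Percent of the solute carriers considered that were higher (red) or lower (blue) in KO by at least 1.5-fold, by transport group, at Sec and Mat, 1 array per genotype and stage. Dashed lines give the percent among all genes considered. Groups were set by gene family, so some members carry other solutes than the group's name says. The genes left out by the rule are in no group. At Mat the Slc17, Slc20 and Slc34 families stand at 4 lower of 5 and chloride, bicarbonate and sulfate carriers at 8 lower of 17, and at Sec metal carriers stand at 7 higher of 20.

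Across all 3 stages, a fit in limma with genotype and stage as terms, adjusted over the 8697 genes detected on at least 3 arrays by Benjamini-Hochberg, called 0 of the 145 members tested between genotypes, against 0% of all genes (smallest adjusted p 0.496). An unadjusted p under 0.05 was reached by 11 members on the higher side and 11 on the lower, against 338 and 519 of all 8697 genes. Slc1a1 (-0.98 ± 0.17, SE) and Slc4a1 (1.44 ± 0.26, SE) had the smallest unadjusted p-values, 0.0025 and 0.0030, both with an adjusted p of 0.496. Without the 2 CL arrays the fit called 2 members, Slc23a3 and Slc6a13, among 93 of the 8697 genes. With stages as the only repeats of the genotype, the fit has 2 residual degrees of freedom, so each difference below is a description of the arrays named.

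The promoters of Slc30a1 and Slc7a11 are shown because these carriers were higher in KO at Sec by the fold rule and their windows hold motifs of their known regulators. Slc30a1 exports zinc and is a target of the zinc sensor Mtf1, which binds metal response elements. Slc7a11 exchanges glutamate for cystine and is a target of Atf4, which binds amino acid response elements. Both are RefSeq windows of GRCm38.p6 from 250 bases before to 50 bases after a transcript start, written 5′ to 3′ on the gene's strand. For Slc30a1 the window is chr1:191906531-191906830 on the + strand, with the matches to TGCACNC or TGCGCNC, on either strand, in capitals. For Slc7a11 it is chr3:50443564-50443863 on the - strand, with the matches to TGATGNAA, on either strand, in capitals.
Slc30a1: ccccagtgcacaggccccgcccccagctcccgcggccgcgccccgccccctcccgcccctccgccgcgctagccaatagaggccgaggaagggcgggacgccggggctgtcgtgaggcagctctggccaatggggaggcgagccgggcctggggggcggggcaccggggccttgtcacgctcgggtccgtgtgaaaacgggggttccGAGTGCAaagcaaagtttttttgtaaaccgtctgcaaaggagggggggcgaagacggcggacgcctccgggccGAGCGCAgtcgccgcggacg
Slc7a11: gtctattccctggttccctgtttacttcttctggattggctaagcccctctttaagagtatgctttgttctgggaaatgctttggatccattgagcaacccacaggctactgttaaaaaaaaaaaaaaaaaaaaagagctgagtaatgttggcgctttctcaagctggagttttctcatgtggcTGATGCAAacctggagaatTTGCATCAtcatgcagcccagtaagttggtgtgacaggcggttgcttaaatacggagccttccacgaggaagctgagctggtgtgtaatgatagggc
The Slc30a1 matches begin 43 bases before and 30 bases after the start, and the Slc7a11 matches 66 and 47 bases before it. Matches to TGCACNC or TGCGCNC were in 25.7% of all 32851 promoter windows and in 35.2% of the 182 windows found for 130 members. Some genes have several windows, which can overlap, so the windows are not separate promoters. TGATGNAA was in 4.0% of all windows and in 3.8% of the members' windows, which are those of Slc23a3, Slc50a1, Slco2a1, Slc1a4, Slc7a7 and Slc7a11. A match is a description of the letters only.

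Slc30a1, the zinc exporter, stood higher in KO at Sec and Mat. It measured 7.02 (CON) and 7.58 (KO) at CL, 7.42 and 9.02 at Sec, then 7.37 and 9.46 at Mat. All 3 KO values lay above all 3 CON values, and KO was 3.02-fold higher at Sec and 4.27-fold at Mat. Mt1, a metallothionein that is another target of Mtf1, measured 14.03 in CON and 14.13 in KO at Sec. At Mat Mt1 measured 15.04 and 14.25, lower in KO. Mt2 was higher in KO at Sec by 0.78 and differed by -0.41 at Mat, and Mtf1 was detected on no array. The part of Mtf1 in these values was not tested.

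The rule left Slc40a1, Slc11a2 and Slc39a8 out of the metal carriers. Of the metal carriers considered, 7 of 20 (35%, against 11.7% of all genes) were counted as higher at Sec and 0 as lower. At Mat 2 of 19 (10.5%, against 12.6%) were higher and 3 (15.8%, against 18.4%) lower. In the deposited normalized values 4 of 20 (20%) were higher at Sec, against 8.15% of all genes. Slc39a4, the importer that takes up dietary zinc in the intestine, was 6.13 in CON, short of detection, and 7.32 in KO at CL. It was 6.97 and 8.51 at Sec, then 7.88 and 7.63 at Mat, so KO stood above CON at the first and second stages only. Slc39a6 (0.75) and Slc39a10 (0.67), a pair of related zinc importers, and Slc31a2 (0.94), a copper carrier of endosomes, were higher at Sec and within 1.5-fold at Mat. Slc41a2, a magnesium carrier, was 8.29 and 8.95 at CL, 9.74 and 10.54 at Sec, then 11.01 and 9.76 at Mat. Its KO array was the higher at CL and Sec and the lower at Mat. Slc39a13, a zinc carrier of the secretory pathway whose loss affects connective tissue, was lower at Mat (-0.84). Slc11a1, a metal exporter of phagosomes, was counted higher at Sec (0.63) and Mat (0.80), but its probes at Mat ran from -1.03 to 0.80, so its direction depends on the probe.

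The 3 phosphate importers among the members, Slc34a2, Slc20a1 and Slc20a2, were lower in KO at Mat. They are coupled to sodium. The Slc17 family, grouped with them here, holds 2 members that carry other solutes. The 5 together gave 4 lower at Mat (80%, against 18.4% of all genes) and 2 at Sec (40%, against 15.2%). Slc34a2 was not detected at CL in either genotype. It measured 8.47 in CON and 7.64 in KO at Sec, then 10.13 and 7.65 at Mat. Thus CON was higher at Mat than at Sec, the KO arrays gave nearly 1 value, and KO was 5.57-fold lower at Mat. Slc20a1 was 6.53 and 6.76 at CL, 6.58 and 6.96 at Sec, then 7.50 and 5.99 at Mat, with KO 2.84-fold lower at Mat. Slc20a2, whose probe was among the brightest of the members, was lower at Sec (-0.60) and Mat (-0.65). Slc17a9, which loads nucleotides into vesicles, was lower (-1.38) at Mat, and Slc17a5, which exports sialic acid from lysosomes, differed by -0.32.

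The group of chloride, bicarbonate and sulfate carriers was set by gene family. At Mat 8 of 17 (47.1%, against 18.4% of all genes) were lower in KO and 1 was higher. At Sec 7 of 15 (46.7%, against 15.2%) were lower and 2 higher. The group takes in Slc13a5 and Slc13a2, described below, which carry citrate and dicarboxylates. Slc13a5 and Slc13a2 are among the 8 lower at Mat, and Slc13a5 is among the 7 lower at Sec. In the deposited normalized values 6 of 17 (35.3%, against 10.1%) were lower at Mat and 3 of 15 (20%, against 7.97%) at Sec. Slc12a7, a potassium-chloride exporter, was lower in KO at all 3 stages. It measured 8.86 (CON) and 8.08 (KO) at CL, 8.60 and 7.57 at Sec, then 9.34 and 7.16 at Mat, and no KO value reached a CON value. Slc12a4, of the same family, was lower at Mat (-0.71), whereas Slc12a2, the sodium-potassium-chloride importer, differed by -0.35. Slc12a8 measured 6.80 and 6.16 at Sec, then 9.20 and 7.10 at Mat. Its CON value at Mat stood above the other 5 arrays.

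Slc26a1, an exchanger of sulfate and oxalate, was not detected at CL and measured 7.74 in CON and 6.98 in KO at Sec, then 8.24 and 6.26 at Mat. Slc13a5 imports citrate, and Slc13a2 imports dicarboxylates. Slc13a5 was at least 3.55-fold lower in KO at Mat, with 7.66 in CON and 5.78, short of detection, in KO. Slc13a2 was at least 3.23-fold lower there and was detected in CON at Mat alone, so its direction was set by detection. Slc13a4, a sulfate importer, was 7.66 and 8.33 at CL, 8.28 and 7.0 at Sec, then 7.78 and 6.36 at Mat. It stood higher in KO at CL and lower at Sec and Mat.

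Slc4a1, the chloride-bicarbonate exchanger of red cells and of acid-secreting kidney cells, went against its group and was higher in KO at all 3 stages. It measured 9.63 (CON) and 10.41 (KO) at CL, 8.37 and 10.28 at Sec, then 8.88 and 10.50 at Mat. Every KO value lay above every CON value. Of the 3 red-cell genes considered (Hba-a1, Hbb-bt and Alas2), 0 were higher in KO at any stage, and Hbb-bt was lower at Mat (-0.65). Hba-a1 measured 14.25 and 14.37 at CL, 14.59 and 14.23 at Sec, then 14.32 and 14.32 at Mat. Rhag and Kel, other red-cell genes, were detected on no array. The summed level of the 5 red-cell genes on the array ran from 21619.5 to 27703 in CON and from 21854 to 24401 in KO. Slc4a2, the widespread member of the family, differed by 0.07, 0.11 and -0.52, and Slc4a3 was lower at Sec (-0.68). Slc4a9 was higher at Sec by at least 1.61.

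The partner genes of ion transport gave 14 lower and 1 higher of 27 considered at Mat, and 3 lower and 3 higher of 26 at Sec. Of all genes considered, 18.4% were lower and 12.6% higher at Mat, and 15.2% and 11.7% at Sec. The partners were carbonic anhydrases, kinases that control carriers and chaperones of carriers, from a list written with earlier results of these data known. Emb, a chaperone of monocarboxylate carriers, was lower at Mat (-1.72), Car2, a cytosolic carbonic anhydrase (-1.55), Ahcyl2, which activates bicarbonate carriers (-1.45), and Sgk1, a kinase that raises carriers at the membrane (-1.30). Car3 was higher at all 3 stages, by 0.63, 1.61 and 1.99. Car3 is abundant in muscle and fat. The summed level of the 16 muscle genes was 11389 in CON and 62586 in KO at Sec, then 52891 and 92545 at Mat. Of the 8 adipocyte genes on the array, 3 (Adipoq, Lep and Plin4) were considered and higher in KO at both Sec and Mat, while Plin1, Cidec and Fabp4 were detected on no array. The summed level of the 8 was 215.8 and 705.6 at Sec, then 263.5 and 1109 at Mat.

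**Figure D2:**
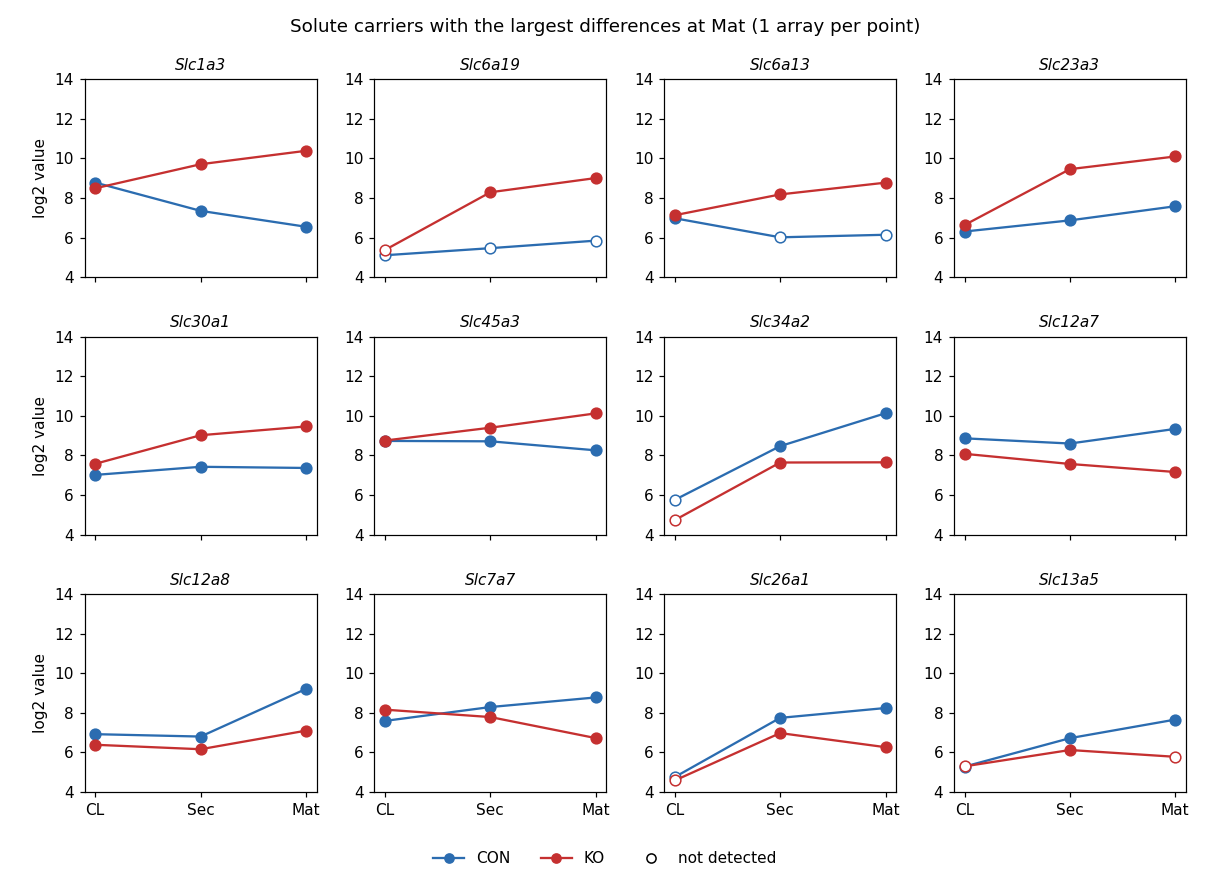
Log2 value of the solute carriers with the 6 largest higher and 6 largest lower differences at Mat, by stage, in CON (blue) and KO (red), 1 array per point, open circles where the probe was not detected. In Slc1a3 the CON line runs down from 8.78 to 6.55 and the KO line up from 8.49 to 10.38, while in Slc34a2 the CON line ends at 10.13 and the KO line at 7.65.

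Amino acid carriers held the widest higher difference at Mat, that of Slc1a3, and 1 of the 10 widest lower ones, that of Slc7a7. Of 30 considered at Mat 7 (23.3%) were higher and 11 (36.7%) lower, and of 31 at Sec 7 (22.6%) and 4 (12.9%), against the shares of all genes given above. The group was set by gene family, so these counts take in Slc6 members of other solutes, such as Slc6a4 (serotonin) and Slc6a8 (creatine). Slc1a3, a sodium-coupled glutamate and aspartate importer known from glia, was 8.78 (CON) and 8.49 (KO) at CL, 7.35 and 9.71 at Sec, then 6.55 and 10.38 at Mat. From levels within 1.5-fold at CL, the CON value was lower and the KO value higher at each later stage on these single arrays, and KO was 5.12-fold higher at Sec and 14.3-fold at Mat. Slc1a1, a related importer of glutamate and cysteine, ran the opposite way. It measured 8.11 and 7.39 at CL, 9.23 and 8.11 at Sec, then 9.69 and 8.59 at Mat, lower in KO at every stage.

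Slc6a19 carries neutral amino acids in gut and kidney and needs a partner protein at the membrane, of which Cltrn was detected on no array. It was short of detection on all 3 CON arrays and measured 8.29 in KO at Sec and 9.01 at Mat, at least 4.46-fold and 7.04-fold higher. Slc6a13, an importer of the transmitter GABA, was 6.98 and 7.13 at CL, 8.18 in KO at Sec and 8.77 at Mat, with both CON arrays of Sec and Mat short of detection. The folds were at least 4.13 and 5.99. Slc6a4, the serotonin importer, was first detected at Mat (7.49) in CON and at Sec (8.40) in KO and reached 8.89 in KO at Mat. Slc6a13 and Slc6a4 were thus higher in KO at both Sec and Mat, as was Slc6a19, whose direction was set by its detection on KO arrays alone. By contrast Slc6a3, Slc6a6, Slc6a8 and Slc6a9 were lower at Mat.

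Slc6a6, Slc6a8 and Slc6a9 import taurine, creatine and glycine, and at Mat they had differences of -0.68, -1.05 and -0.87. Their differences at Sec were -0.05, -0.14 and 0.22. Slc6a15, an importer of neutral amino acids known from neurons, was 7.91 and 8.51 at CL, and 7.94 in CON at Sec against 5.73, short of detection, in KO. It was at least 3.77-fold lower in KO at Sec by this probe and under 1.5-fold in the mean of its probes. Slc6a17, which fills vesicles in neurons, was lower at Sec (-1.04).

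The Slc7 light chains pair with the heavy chain Slc3a2, whose probe lay at the detection limit with values from 5.89 to 6.40. Slc7a5, which imports large neutral amino acids, was 10.97 and 11.25 at CL, 10.53 and 11.78 at Sec, then 10.38 and 11.94 at Mat, and Slc7a8, of like function, was higher at Mat by 0.75. Slc7a7 and Slc7a6, which exchange cationic for neutral amino acids, were lower at Mat (-2.05 and -1.40). Both probes of Slc7a7 gave a lower value in KO at Mat by over 1.5-fold. Slc7a7 is also expressed in macrophages, and of the 7 macrophage genes 6 were lower at Sec but 1 at Mat, with summed levels of 8316 in CON and 4739 in KO at Sec, then 5498 and 4996 at Mat. Slc7a3, an importer of cationic amino acids, was lower at Sec and Mat, with bounds of -1.28 and -0.75 on the log2 scale, but under 1.5-fold in the deposited normalized values.

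Slc7a11, whose promoter is shown above, differed between genotypes at Sec alone. It was 6.20 and 6.24 at CL, 7.88 and 9.22 at Sec, then 9.13 and 9.22 at Mat. The KO array of Sec already stood at the level of the Mat arrays. Atf4 itself was within 1.5-fold at the 3 stages, by 0.15, 0.18 and 0.41. Slc38a2, a glutamine importer with a bright probe, and Slc1a4 were within 1.5-fold at all 3 stages.

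Among carriers of vitamins, nucleosides and peptides, 5 of 14 (35.7%, against 12.6% of all genes) were higher and 2 (14.3%, against 18.4%) lower at Mat. In the deposited normalized values 2 (14.3%, against 9.30%) were higher and 1 (7.14%, against 10.1%) lower. Slc23a3, of the ascorbate family but without a settled substrate, was 6.31 and 6.63 at CL, 6.87 and 9.46 at Sec, then 7.58 and 10.10 at Mat. The KO arrays of Sec and Mat lay above the other 4, and the folds were 6.01 and 5.71. Slc15a2, a peptide importer, was higher at Sec (1.06) and Mat (0.79), though under 1.5-fold in the deposited normalized values, at 0.48 and 0.37. Slc19a1, the folate importer, and Slc52a3, the riboflavin importer, were higher at Mat by 0.76 and 0.80. For Slc19a1 CON ran from 9.43 at CL to 7.99 at Mat and KO from 9.25 to 8.75. Slc29a1, which equilibrates nucleosides across the plasma membrane, was 10.06 and 9.67 at CL, 9.73 and 9.09 at Sec, then 8.82 and 9.49 at Mat, on the lower side at Sec and the higher side at Mat. Slc46a1, an importer of folate and haem, and Slc15a3, a lysosomal peptide carrier of immune cells, were lower at Mat (-0.81 and -0.96).

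Carriers of monocarboxylates, bile acids, fatty acids and choline were higher in 4 (28.6%, against 12.6% of all genes) and lower in 2 (14.3%, against 18.4%) of 14 at Mat. Slc27a4, a fatty acid importer and acyl-CoA synthetase needed for the skin barrier in mice, was 6.64 and 6.97 at CL, 7.06 and 8.09 at Sec, then 7.22 and 8.68 at Mat. Slc27a6, of the same family, was at least 3.34-fold higher in KO at Mat (7.93) and 2.65-fold at Sec (7.54), with CON short of detection at both. Slc27a1, which serves muscle and fat, was lower at Mat (-1.04), and Slc27a3 differed by -0.09 at Sec and by 0.37 at Mat. The 4 Slc27 members thus did not share a direction. The 10 epidermal genes on the array had a summed level of 1909.9 in CON and 73366 in KO at Mat. Slc16a6, of the monocarboxylate family, was 6.20 in KO and short of detection in CON at CL, and 6.31 and 8.11 at Mat, while Slc16a9 was 9.81 and 8.31 at Mat. Slc44a2, a choline carrier, was higher at Mat by 0.79. Slc10a6, which imports sulfated steroids, was at least 3.39-fold higher at Sec and differed by 0.28 at Mat, and Slc16a4, of the monocarboxylate family, was at least 3.16-fold lower at Sec.

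Sugar carriers were counted higher in 2 and lower in 2 of 16 at Mat, 12.5% each, no more than the 12.6% and 18.4% of all genes. This group too was set by gene family and takes in the Slc5 family, not all of which carries sugars. Slc45a3, of a family of sugar symporters, was 8.73 and 8.75 at CL, 8.71 and 9.40 at Sec, then 8.26 and 10.12 at Mat, a 3.64-fold difference at Mat. Slc37a4, which moves glucose 6-phosphate into the endoplasmic reticulum, was 6.89 and 7.49 at CL, 7.05 and 7.99 at Sec, then 7.86 and 6.46 at Mat, so that KO was above CON at the first and second stages and below it at Mat. Slc2a1, the widespread glucose importer, was 9.84 and 9.84 at Sec, then 10.97 and 9.87 at Mat. Its CON array of Mat stood alone above the other 5. Slc2a3, a glucose importer of high affinity, was lower at Sec (-1.04). Slc45a2, a melanosome protein, and Slc2a4, the insulin-regulated importer of muscle and fat, were detected on the KO arrays of Sec and Mat alone, at 6.19 and 6.75 and at 6.28 and 6.62, with bounds under 1.5-fold. The melanocyte genes had a summed level of 1213 in CON and 8099.5 in KO at Sec, then 1706 and 12513 at Mat.

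The small group of sodium, proton and calcium exchangers held 2 lower (40%, against 18.4% of all genes) and 0 higher of 5 at Mat. In the deposited normalized values 1 was lower (20%, against 10.1%). Slc9b2, a sodium-proton exchanger known from osteoclasts, was 8.55 and 8.44 at CL, 10.15 and 10.46 at Sec, then 11.60 and 9.96 at Mat. The osteoclast genes Ctsk and Mmp9 were lower at Mat (-1.16 and -1.34) and also at Sec (-0.81 and -0.86), where Slc9b2 differed by 0.30. Calcr and Dcstamp, other osteoclast markers, were detected on no array. The summed level of the 9 osteoclast genes on the array was 11416 and 6510.2 at Sec, then 19749 and 8642 at Mat. Slc24a3, a calcium exchanger driven by sodium and potassium, was 10.86 in CON and 12.03 in KO at Sec and differed by -0.29 at Mat. Slc8a1, the sodium-calcium exchanger of heart, was lower at Sec (-0.60) and Mat (-0.75). Slc9a8 was counted lower at Sec, but its probes there ran from -0.63 to 0.78.

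Carriers of nucleotide sugars, which supply glycosylation in the Golgi, were mostly within 1.5-fold, with 0 higher and 4 lower (21.1%, near the 18.4% of all genes) of 19 at Mat. At Sec 1 of 18 was higher (5.56%, against 11.7%) and 2 were lower (11.1%, against 15.2%). Slc35d1, needed for cartilage proteoglycans in mice, was lower at Sec (-0.98) and at Mat (-0.84), and Slc35e2 was lower at Mat (-1.11). Slc35b1, whose probe was bright, ran from 12.07 to 12.67 over the 6 arrays. Among organic ion carriers 0 were higher and 4 lower (36.4%, against 18.4% of all genes) of 11 at Mat. In the deposited normalized values 0 were higher and 2 lower (18.2%, against 10.1%). Slco2a1, the prostaglandin importer, was 9.66 and 8.79 at Sec, then 10.44 and 9.28 at Mat, and Slc22a5, the carnitine importer, was lower at Mat (-0.73). Slco2a1 is abundant in endothelium, whose summed list of 11 genes was 16429 and 10430.2 at Sec, then 20361 and 11976 at Mat. Slco2b1 was lower at CL (-0.76) and Slco3a1 higher at Sec by 1.10.

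The comparisons at Sec and at Mat share no array, and the members could be set side by side between them. The labels do not say whether the pools of Sec and Mat came from different mice, so calls made at both are not evidence from separate animals. There were 16 members higher in KO at both, 14 lower at both, 2 higher at Sec and lower at Mat (Slc37a4 and Slc41a2) and 1 the reverse (Slc29a1). As shares of the 144 members considered at both, higher at both was 11.1% and lower at both 9.72%, against 6.98% and 5.25% of 8782 genes, and opposite sides were 1.39% and 0.694%, against 1.16% and 0.911%. Another 24 (16.7%, against 11.97% of all genes) were lower at Mat while considered and within 1.5-fold at Sec, among them Slc7a7, Slc9b2, Slc16a9, Slc20a1, Slc6a8 and Slc2a1. The 2 probes of Slc7a7 ran from -0.82 to -0.51 at Sec, so its place in this group depends on the probe. The group that was higher at both held Slc1a3, Slc6a19, Slc6a13, Slc23a3, Slc30a1, Slc4a1 and Slc7a5, and the group that was lower at both Slc34a2, Slc12a7, Slc26a1, Slc13a4 and Slc1a1.

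**Figure D3:**
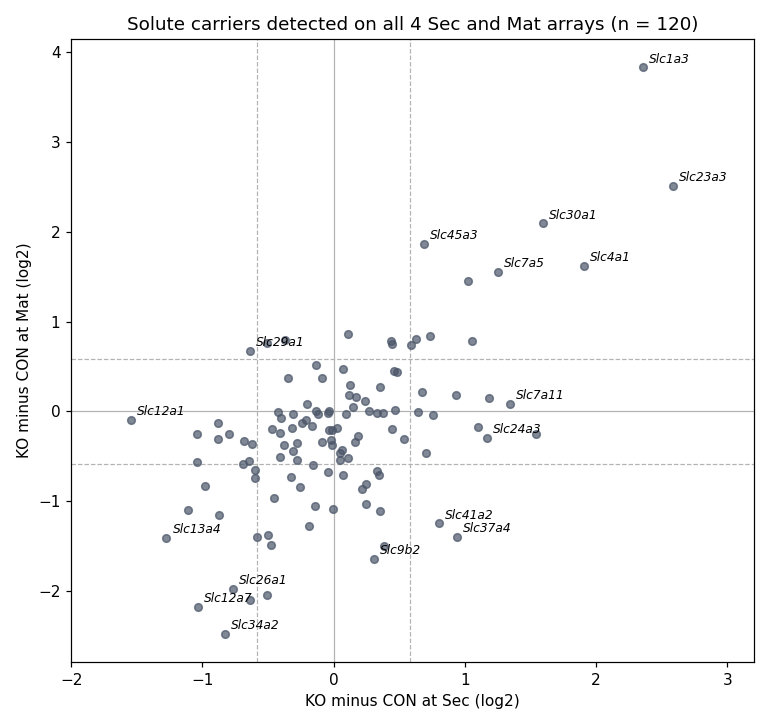
KO minus CON at Sec (x) against KO minus CON at Mat (y), on the log2 scale, for the 120 solute carriers detected on all 4 of these arrays, 1 point per gene, dashed lines at 1.5-fold. Slc1a3 lies at 2.35 and 3.84, Slc34a2 at -0.83 and -2.48, and Slc41a2 and Slc37a4 on the right and below 0.

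How the carriers differed along the tooth was compared within each genotype. In CON 40 of 151 members (26.5%) were higher at Mat than at CL, against 17.1% of all genes, and 30 (19.9%) were lower, against 20.6%. In KO 40 of 158 (25.3%) were higher, against 15.8%, and 42 (26.6%) were lower, against 24.6%. Members higher in both genotypes numbered 21 and lower in both 20, while 3 were lower in CON and higher in KO, and 3 the reverse. Of the 143 members considered in both these were 14.7%, 14.0%, 2.10% and 2.10%, against 8.29%, 13.6%, 0.822% and 0.594% of 8757 genes. Slc7a11 had nearly the same difference in both, 2.93 in CON and 2.98 in KO. Slc9b2 differed by 3.05 and 1.52, Slc41a2 by 2.73 and 0.81, Slc12a8 by 2.28 and 0.71, and Slc34a2 by at least 3.94 and at least 1.63. Slc1a3 went from CL to Mat by -2.23 in CON and by 1.89 in KO. Of the 40 members higher in CON at Mat than at CL, 21 (52.5%) were lower in KO than CON at Mat and 4 (10%) higher, against 46.6% and 9.98% of the 1533 such genes in all, but both counts use the same CON array of Mat and so are not separate evidence.

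**Figure D4:**
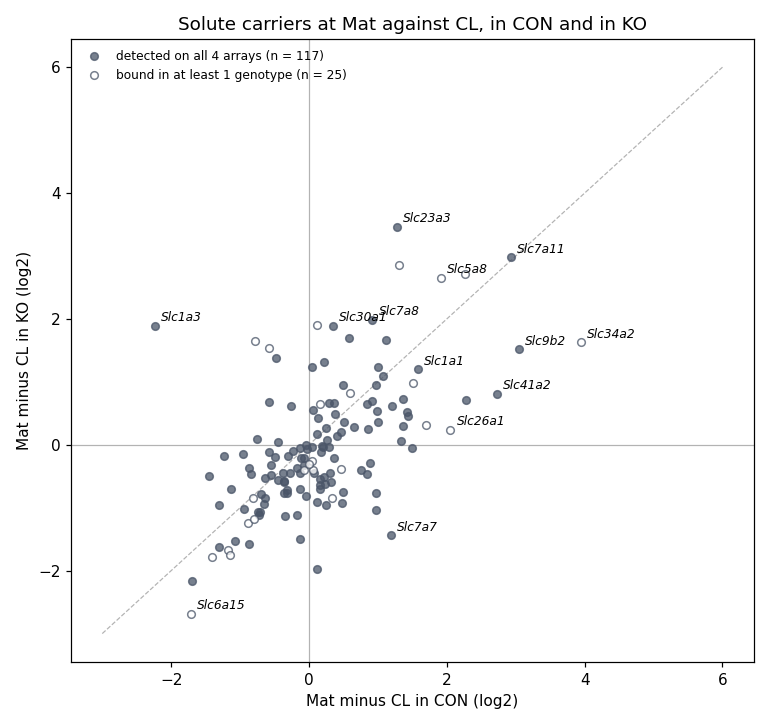
Mat minus CL in CON (x) against Mat minus CL in KO (y), on the log2 scale, for solute carriers with a value in both genotypes, 1 array per genotype and stage. Filled points (117) were detected on all 4 arrays, open points (25) are bounds in at least 1 genotype, and the dashed line marks equal differences. Slc1a3 lies at -2.23 and 1.89, and Slc34a2, Slc9b2 and Slc41a2 lie below the line.

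Averaged over genotypes, the same limma fit called 0 of 145 members between Mat and CL, against 0.0115% of all genes, and 29 members on the higher side and 23 on the lower reached an unadjusted p under 0.05, against 1044 and 1695 of the 8697 genes. The smallest adjusted p of a member was 0.0641, shared by Slc34a2 (3.65 ± 0.45, SE), Slc38a5 (-1.95 ± 0.25, SE), a glutamine carrier, and Slc7a11 (2.95 ± 0.38, SE). After scaling to a common median in place of quantiles, 7 members (4.83%) were called, against 312 (3.59%) of all genes. These values rest on 2 arrays per stage, 1 of each genotype, and the fit uses values below detection as measured.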

How the data were processed

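RNA from dissected incisor tissue, pooled from 3 mice per array, was hybridized by the authors to Illumina mouse bead arrays and extracted with Genome Studio, whose version and normalization method are not given in the sources used here. The deposited non-normalized table gives a linear intensity, with its detection p-value, for each of 25697 probes and each of 6 arrays. A second deposited table holds normalized intensity values and served as an alternative. No column of per-sample values was left unused.

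Intensities were background-corrected and quantile-normalized with neqc (limma 3.58.1, R 4.3.3), using the detection p-values, with an offset of 16, and put on the log2 scale. The platform annotation named 23978 probes for 16593 genes. Of several probes per gene the one with the highest mean was used (54 members had several). A gene not detected on an array took the higher of its value and that array's floor (5.83 to 6.19), the lowest value of a detected probe, and its difference is then a bound. A bound under 1-fold gives no fold. Precision is limited by the number of arrays and, for dim probes, by the background. With 1 array per genotype and stage, differences by stage carry no test. The limma fit over 6 arrays used genotype and stage, genes detected on at least 3 arrays, Benjamini-Hochberg adjustment and a threshold of 0.05. The code was tested on simulated data. Gene and promoter positions are from RefSeq GRCm38.p6. All 168 members matched its gene identifiers.

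Members, gene lists and tests were chosen with earlier results of these data known. Named members are the largest differences per stage (10 each way at Mat, 7 at Sec, 5 at CL), the 10 brightest, those with opposite directions at different stages, up to 4 per transport group, those against their group, Med1 and partner genes past the fold rule. Rhag, Kel, Mtf1, Cltrn, Atf4, the marker genes and a few further members such as Slc38a5 were named outside that rule, after their values were seen. Alternatives were the deposited values, median scaling, the mean of a gene's probes, a detection p of 0.05, a fold of 2, other gene filters, no stage term and leaving out each stage.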

Additional observations from a re-analysis of the deposited data

Results flagged for a closer look

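Of the members, 6 were counted in opposite directions at different stages, and the difference between stages was not tested. The matching share of all genes was not computed for pairs of stages that include CL. Of members considered at both Sec and Mat, 1.39% were higher at Sec and lower at Mat, against 1.16% of all genes. The reverse held for 0.694%, against 0.911%. Between Sec and Mat, opposite directions were thus about as frequent among the members as among all genes. Slc12a1, the sodium-potassium-chloride importer of kidney, differed by 0.62 at CL and by -1.54 at Sec. Slc13a4 differed by 0.67 at CL, -1.28 at Sec and -1.41 at Mat. Slc6a15 differed by 0.60 at CL and by -1.91, a bound, at Sec. Slc29a1 differed by -0.64 at Sec and 0.67 at Mat. Slc37a4 differed by 0.60 at CL, 0.94 at Sec and -1.40 at Mat, and Slc41a2 by 0.67, 0.80 and -1.25. In the deposited normalized values the CL differences of Slc12a1, Slc13a4, Slc6a15, Slc37a4 and Slc41a2, both differences of Slc29a1 and the Sec difference of Slc37a4 were under 1.5-fold, while Slc41a2 kept its sides at Sec and Mat. With the mean of probes Slc6a15 was under 1.5-fold at CL (0.31) and at Sec (-0.36), and Slc12a1 at CL (0.36). Slc13a4, Slc37a4 and Slc41a2 kept their side at CL in that setting.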

How the results depend on the processing

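Each stage and genotype is 1 pool of 3 mice on 1 array, so the counts describe 6 arrays. The limma fit takes stage as a term, and no further pairing of pools was possible because the labels carry no replicate numbers. A slide block was not run because the headers give no slide. With the deposited normalized values, members counted at CL were 1 higher and 1 lower, and the lower counts were 12 at Sec and 28 at Mat. With a fold of 2 CL had 1 higher and 0 lower, Sec 20 and 9, Mat 12 and 23. At that fold members at Sec were thus more often higher than lower, unlike the near-even counts at 1.5-fold. The shares of all genes at a fold of 2 were not computed. After median scaling, the contrast of Mat and CL called 7 members. Leaving out 1 stage gave 0 to 2 members called between genotypes. Of 133 single differences, 52 crossed the fold rule with the deposited values, 16 with the mean of probes, 5 with median scaling and 0 with a detection p of 0.05. No difference that could be recomputed changed its direction, and that of Slc39a4 at CL gave no fold with the mean of probes. Dim probes limit the folds, since for them the size of a fold depends on how background is treated.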
